A study of Arabidopsis thaliana with 18 samples.

Results

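The comparison followed CMP-treated root cultures of Arabidopsis thaliana from 4 h to 24 h of treatment, using the 3 arrays titled CMP at 24 h and the 3 titled CMP at 4 h among the 18 arrays of the study. All 6 were chosen by their labels. Every probe set other than the array's controls that exceeded the 40th percentile of its array on at least 3 of these 6 arrays was tested. This gave 13929 of the 22810 probe sets of the array (64 of which are controls), and 7459 of the 13929 carry 1 gene name. All 6 groups of the study (acetone, fenclorim and CMP, each at 4 h and 24 h, 3 arrays a group) were wild type Col-0 roots cultured without light at 25 °C in Gamborg's B5 medium and used at an age of 14 days. Fenclorim is a safener, a compound that protects cereal crops from herbicides, and acetone is named as a group of its own and is taken here as the solvent control. The labels give neither the meaning of the code name CMP nor a dose, so its structure is not stated. The study's purpose, by its title, is safening by fenclorim in Arabidopsis, and the present contrast asks how the transcripts of CMP cultures moved between the times. Whether the 3 replicates of a group were grown as separate cultures is not stated, and the spread behind each p-value may thus be partly or wholly technical.

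Plant cells meet foreign chemicals with a system that resembles the animal liver: cytochromes P450 and reductases modify the compound, glutathione transferases and UDP-glycosyltransferases attach glutathione or sugar, and membrane pumps move the product into the vacuole or out of the cell. Many of these genes, together with genes of mitochondrial stress and of heat shock, are known to be induced by reactive chemicals within hours. Class III peroxidases are secreted enzymes that use hydrogen peroxide and act in cell wall cross-linking and lignin formation, and autophagy recycles cytoplasm through membrane vesicles that carry ATG8 proteins.

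Between 4 h and 24 h of CMP, transcripts of several detoxification, mitochondrial stress, heat shock and beta-tubulin genes fell, and those of several secreted peroxidases, autophagy genes and genes that were near the array's floor at 4 h rose. Of the 13929 probe sets, 1807 (13.0%) passed an adjusted p under 0.05 in limma, a moderated linear model, with Benjamini-Hochberg adjustment. These were 827 higher at 24 h (5.94% of those tested) and 980 lower (7.04%). Counts of calls in the gene lists below are to be read against these shares. At least a 2-fold difference was seen in 384 of the higher and 566 of the lower, and at least a 4-fold difference in 84 and 81. Changes are given as the difference of mean log2 signal, 24 h minus 4 h, ± SE with n = 3 arrays a group, and "rose" or "fell" is used where the adjusted p was under 0.05. In acetone, the same test between the same times called 0 probe sets; 728 (5.23%) had an unadjusted p under 0.05, against 3874 in CMP, and the smallest adjusted p was 0.0661. The median difference over all tested probe sets was 0.11 in CMP and 0.04 in acetone. Centring every array on its median moved the CMP median to -0.03 and the split of calls from 827 higher and 980 lower to 523 and 1225, and quantile normalization gave 750 and 1129, so small changes depend on the scaling.

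**Figure D1:**
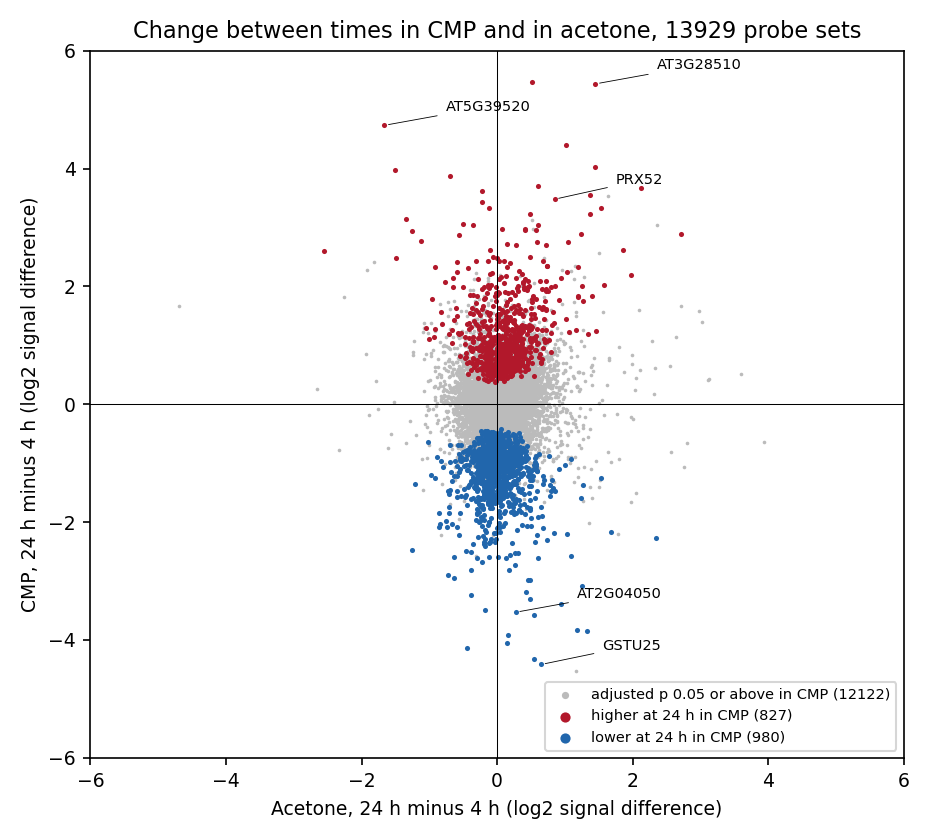
Each point is 1 of 13929 probe sets, with its difference in mean log2 signal, 24 h minus 4 h, in acetone (horizontal) and in CMP (vertical). Probe sets called in CMP are red (827 higher) or blue (980 lower), and they extend from -4.42 for GSTU25 to 5.47 for a probe set with no gene name in CMP, while most lie near 0 in acetone.

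One CMP array stood apart before any test. On the second principal component of the 18 arrays (17.3% of the variance, after 45.5% on the first), CMP 4 h replicate 2 lay at -15.9, the other CMP 4 h arrays at 30.5 and 41.2, and the CMP 24 h arrays between 38.2 and 44.3. The mean log2 signal of the 12 spiked poly-A controls was 7.67 on that array, 6.30 and 6.32 on the other 4 h arrays and 6.93 to 7.01 at 24 h. The difference between the 3′ and 5′ probe sets of GAPDH, a sign of RNA integrity, was 0.15 to 0.21 (log2) at 4 h and 0.22 to 0.36 at 24 h in CMP, and 0.31 to 0.60 in acetone. The part of these measures in the results was not tested. Without CMP 4 h replicate 2, 1257 probe sets were called, 514 higher and 743 lower, of which 459 and 691 were among the calls above. The count was 1024 without CMP 24 h replicate 1, 1187 without replicate 2, 1130 without replicate 3, 1026 without CMP 4 h replicate 1 and 1798 without CMP 4 h replicate 3. Of 25 marker loci for root cell types and green tissue, 2 were named on the array and 0 passed the filter. The root hair expansins EXPA7 and EXPA18 had signals of 0.803 to 9.96 and 6.06 to 17.0 on the CMP arrays, so the labelled tissue could not be checked. In bulk RNA, fewer cells of a type and less RNA per cell cannot be told apart.

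The largest fall among the called probe sets was that of GSTU25 (AT1G17180), a tau class glutathione transferase. Its signal was 721, 1050.0 and 447 on the CMP 4 h arrays and 38.0, 37.7 and 24.3 at 24 h, with no overlap. Arrays without overlap alone are common here, in 39.4% of all tested probe sets. The difference was -4.42 ± 0.57 (adjusted p = 0.000184), or 21.3-fold. On the 6 acetone arrays the signal lay at 3.62 to 19.7, so the 24 h CMP arrays were still above every acetone array. GSTU22 also fell, from 437, 783 and 559 to 177, 89.1 and 119 (-2.22 ± 0.41, adjusted p = 0.00228). GSTU27 rose by 1.09 ± 0.30 (adjusted p = 0.0255), a call kept only without CMP 4 h replicate 3 when single CMP arrays were left out. Its neighbour in class GSTU26 had a difference of 1.83 ± 0.72 that missed the threshold (adjusted p = 0.107). Of 8 tested glutathione transferases 2 fell and 1 rose (7.04% and 5.94% of all tested probe sets), with a median of -0.04. The family therefore did not move as one, and the 2 falls belonged to genes with high signals at 4 h.

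Sugar transfer and export showed the same picture of a few strong falls. UGT73B5 (AT2G15480), a glycosyltransferase known to respond to stress, had signals of 519, 463 and 356 at 4 h and 138, 131 and 119 at 24 h, against 9.97 to 28.7 in acetone. It fell by 1.77 ± 0.30 on the log2 scale (adjusted p = 0.00117). Its relative UGT73B4 gave 435, 259 and 254 and 95.6, 107 and 88.9, again without overlap, but its difference of -1.66 ± 0.74 did not pass (adjusted p = 0.156), and its acetone signals ranged from 0.520 to 14.0. UGT73B1 fell by 0.93 ± 0.20. In a list that does not hold every member of the family, 31 UDP-glycosyltransferases were tested. Of these 5 fell (UGT73B5, UGT88A1, UGT73B1, UGT85A4 and UGT71C5) and 0 rose, and the median was -0.34. The falls numbered 3 without CMP 24 h replicate 2 or CMP 4 h replicate 2. With only the 6 CMP arrays fitted 8 fell and 3 rose. The 5 calls are 16.1% of the list, against 13.0% of all tested probe sets. Outside the list, the glycosyltransferase IAGLU fell (-1.12) and the flavonol rhamnosyltransferase AT1G06000, given below, rose. UGT88A1 lost its call without CMP 24 h replicate 1 or CMP 4 h replicate 2, UGT71C5 without CMP 24 h replicate 2, and UGT85A4 kept it only without CMP 24 h replicate 1 or CMP 4 h replicate 3. Among the MATE proteins, a family of efflux carriers, AT2G04050 had 345, 362 and 207 at 4 h and 21.0, 28.7 and 27.8 at 24 h (-3.53 ± 0.33, adjusted p = 1.24e-05, 11.5-fold). Its close relative AT2G04070 went from 288, 431 and 269.7 to 46.8, 64.8 and 49.1 (-2.60 ± 0.39, adjusted p = 0.000538). Short probes for such similar genes may share signal. Of 17 tested MATE genes 5 fell and 2 rose (AT3G26590 by 1.89 ± 0.37 and AT1G71140 by 1.23 ± 0.31), with a median of -0.21. Over all tested probe sets 7.04% fell and 5.94% rose. The MATE list was put together after the values were seen. The MATE genes gave 2 falls and 1 rise without CMP 4 h replicate 1. They gave 3 falls without CMP 24 h replicate 1, and 1 rise without CMP 24 h replicate 2. The acetyltransferase-like gene AT2G32020 went from 182, 264 and 178 to 16.7, 9.33 and 9.96 (-4.14 ± 0.94, adjusted p = 0.00773). AT2G41730, measured by a probe set that may cross-hybridise, went from 2500.4, 4279 and 2427 to 213, 190.3 and 189 (-3.91 ± 0.48, adjusted p = 0.000131). Neither of these had a CMP 24 h array within its 4 h range, which the rule for naming them required. Of 10 tested cytochromes P450, 2 fell (CYP71B5, -1.55 ± 0.31, and CYP71B22, -1.32 ± 0.34) and 1 rose (CYP71B28, 0.92 ± 0.27). CYP71B22 lost its call without CMP 24 h replicate 1 or CMP 4 h replicate 3, and CYP71B28 kept it only without CMP 4 h replicate 3. Of 7 carbonyl reductases only the alkenal reductase AER fell (-1.08 ± 0.31, adjusted p = 0.0275). Its call was lost without CMP 24 h replicate 1 or 3 or CMP 4 h replicate 1. This 1 call is 14.3% of that list, near the 13.0% of all tested probe sets.

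**Figure D2:**
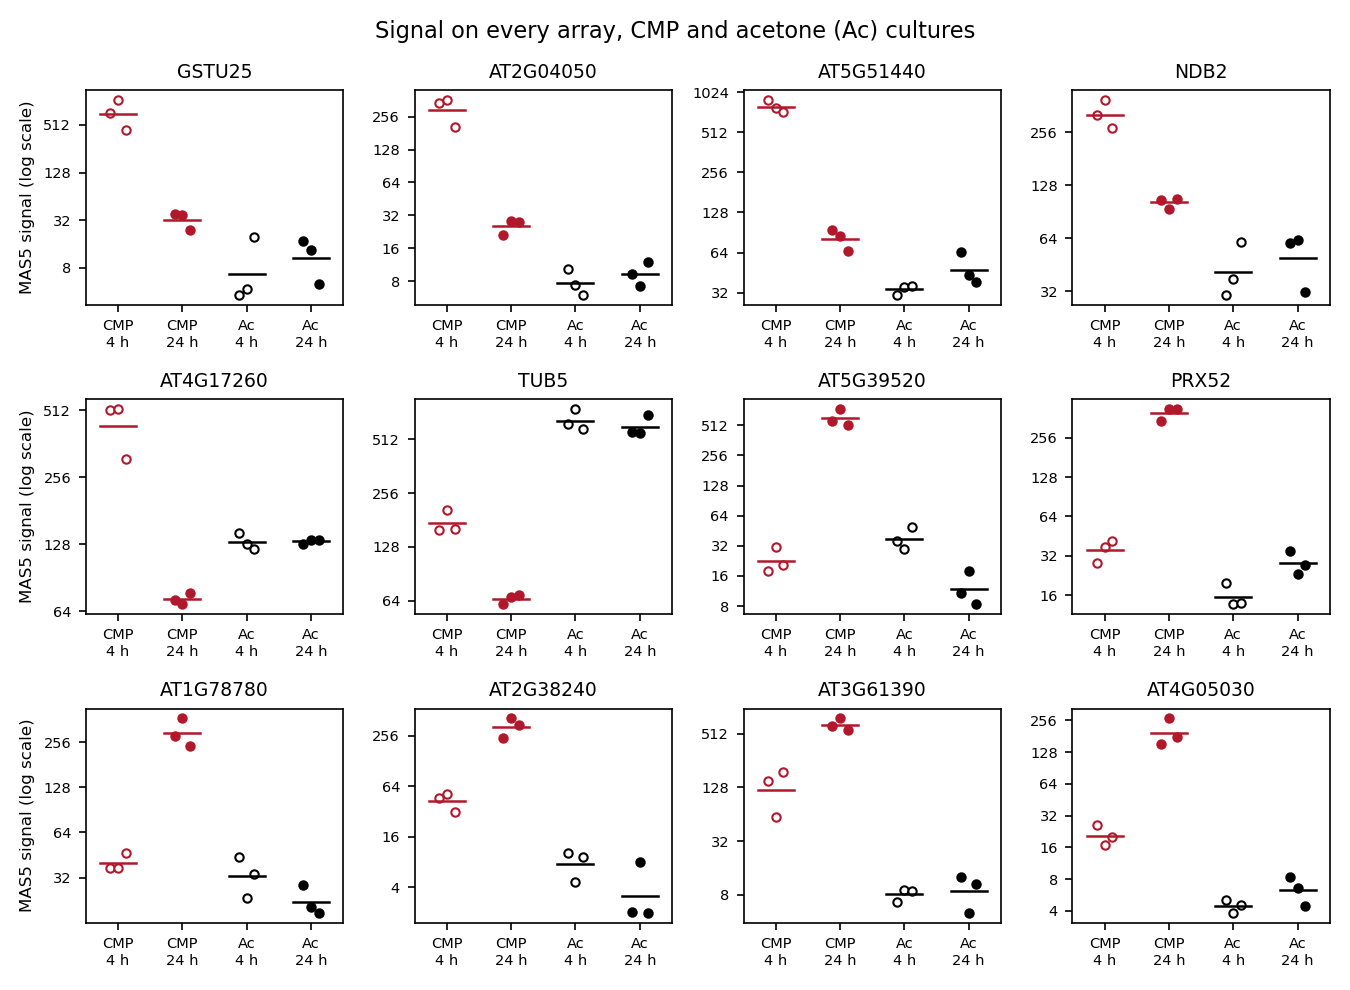
MAS5 signal of 12 genes on every array of the CMP (red) and acetone (Ac, black) groups, on a log axis, with open points at 4 h, filled points at 24 h and bars at the geometric mean of 3 arrays. In the 6 genes that fell the CMP 4 h points lie above the CMP 24 h points, and in the 6 that rose below them. TUB5 lay below its acetone arrays at both times, and lactate dehydrogenase AT4G17260 passed from above to below them.

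Nuclear genes of mitochondrial stress fell together. The mitochondrial small heat shock protein gene AT5G51440 had signals of 891, 779 and 732 at 4 h and 94.5, 85.4 and 65.2 at 24 h, against 30.7 to 64.5 in acetone (-3.30 ± 0.41, adjusted p = 0.000158, 9.88-fold). AT2G21640 (UPOX, induced by oxidative stress) went from 977, 637 and 491 to 159, 180.2 and 150.4 (-2.05 ± 0.44, adjusted p = 0.00589). NDB2, an alternative NADH dehydrogenase that bypasses complex I, went from 319, 389 and 269.9 to 106, 94.2 and 107 (-1.65 ± 0.26, adjusted p = 0.000689). At 24 h all 3 CMP arrays of these genes still exceeded every acetone array. AT5G14730 fell by 2.36 ± 0.24 and AT1G05060 by 1.37. Of 8 tested members of the list 6 fell and all 8 had a difference below 0, with a median of -1.51 against 0.17 in acetone. Of all tested probe sets 7.04% fell. The mean log2 signal over the 8 was 8.04, 7.93 and 7.66 at 4 h and 6.36, 6.31 and 6.29 at 24 h. Leaving out single CMP arrays gave 5 to 7 falls. By contrast, of 12 tested genes encoded in the mitochondrion itself 0 were called (differences from -0.13 to 0.29).

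Some heat shock and chaperone genes also fell, by a list of loci put together after the values were seen. AT2G29500, a class I small heat shock protein, had 1349.5, 599 and 703 at 4 h and 155, 175 and 109.9 at 24 h (-2.53 ± 0.51, adjusted p = 0.00366), with 12.3 to 48.0 in acetone. Fes1B, a co-chaperone of Hsp70, went from 49.8, 34.5 and 43.8 to 9.28, 8.51 and 8.08 (-2.29 ± 0.21, adjusted p = 1.03e-05). Its 4 h signals lay within or near those of acetone (37.3 to 46.7) and its 24 h signals below all of them, so this member followed another course than the small heat shock genes. With an offset of 16 added before the log, which shrinks changes at low signals, the difference was -1.24. Fes1A (-1.0), Hsp70-2 (-0.51), the Hsp70 gene AT3G09440 (-0.90) and AT4G21870 (-1.31) fell too, but Fes1A kept its call only without CMP 4 h replicate 3, Hsp70-2 only without CMP 24 h replicate 2, and AT4G21870 only without CMP 4 h replicate 2. Of 13 tested heat shock and chaperone genes 7 fell, AT5G51440 among them, and all 13 had a difference below 0, with a median of -1.0 against 0.25 in acetone. Without CMP 24 h replicate 1 or 3 or CMP 4 h replicate 1 the count was 4. The share of falls over all tested probe sets was 7.04%. The list first drawn up by gene symbol held 3 tested genes and gave another picture, with 0 calls and a median of 0.27. Of these, AT5G48570 (-1.66 ± 0.58, adjusted p = 0.0675) is in both lists, and BOB1 (0.27) and BRK1 (0.41, matched through a synonym) lay above 0.

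The unfolded protein response of the endoplasmic reticulum split. BZIP60, a transcription factor of that response, had 1328, 1452 and 1011 at 4 h and 557, 666 and 566 at 24 h, with 238 to 284 in acetone (-1.07 ± 0.17, adjusted p = 0.000705). The calreticulin gene CRT1b, which encodes a chaperone of the same compartment, rose from 225, 255 and 284 to 469, 561 and 535 (1.04 ± 0.13, adjusted p = 0.000164), and its 24 h signals reached those of acetone (430.3 to 628). ERDJ3B, a co-chaperone there, rose by 1.33 ± 0.25 (adjusted p = 0.00239). The protein disulfide isomerase PDIL5-1 rose by 0.67 ± 0.20, a call kept only without CMP 4 h replicate 3 among the fits that leave out 1 array. BZIP28, another transcription factor of the response, had a difference of 0.08 ± 0.16. Thus of 5 tested genes 3 rose and 1 fell, and the fall was that of BZIP60 but not of BZIP28. The shares over all tested probe sets were 5.94% higher and 7.04% lower.

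Tubulins and a few cell wall genes were among the falls. The beta-tubulin TUB5 had 160.2, 206 and 160.5 at 4 h and 61.3, 67.2 and 69.2 at 24 h, when acetone arrays lay at 553 to 756 (-1.40 ± 0.20, adjusted p = 0.00043). TUB1 went from 75.6, 122 and 86.7 to 35.9, 28.8 and 30.7 (-1.55 ± 0.28, adjusted p = 0.00172) and TUB6 from 396, 534 and 387 to 212, 196 and 223 (-1.05 ± 0.24). These 3 were below every acetone array at both times. TUA6 fell by 0.62, a call kept only without CMP 4 h replicate 1. TUA1 rose by 0.55, a call lost without any single CMP array and after median centring. Of 7 tested tubulins 4 fell and 1 rose (3 and 0 after centring), with a median of -0.62. The shares over all tested probe sets were 7.04% and 5.94%. Among the xyloglucan endotransglucosylases, which cut and rejoin wall polymers, XTH18 went from 1067, 629 and 754 to 146, 193 and 248 (-2.06 ± 0.42, adjusted p = 0.00405). XTH19 (-1.36) and XTH32 (-1.37) fell as well, but XTH32 lost its call without any single CMP array, and XTH19 without CMP 24 h replicate 2 or CMP 4 h replicate 1. TBL41, of a family of wall O-acetyltransferases, fell by 3.58 ± 0.59 from 38.6, 58.3 and 44.8 to 6.31, 8.37 and 1.11, or by 1.58 with an offset of 16, and was the only one of 14 tested relatives with a call. The pectin methylesterase gene ATPMEPCRB fell from 271, 102 and 118 to 25.8, 33.3 and 49.2 (-2.09 ± 0.38). Of 7 expansins, 7 cellulose synthases and relatives and 4 cell cycle genes, 0 were called. With only the 6 CMP arrays fitted, 1 of the cellulose synthases and relatives fell.

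The CC-type glutaredoxins were measured in 12 genes. All 12 genes, of a plant class of small redox proteins, had differences below 0 (median -0.98, acetone -0.20). In acetone 8 of the 12 lay below 0. The CMP change was below the acetone change in 11, but by test in only 1. Short probes for similar genes may share signal here too. Of the 12 genes 3 fell, or 1 without CMP 24 h replicate 1 or 2 or CMP 4 h replicate 1. Over all tested probe sets 7.04% fell. The glutaredoxin list was put together after the values were seen. AT1G06830 went from 282, 213 and 190.3 to 50.9, 55.1 and 47.9 (-2.14 ± 0.44, adjusted p = 0.00389). AT2G47880 went from 75.2, 61.0 and 64.7 to 7.43, 6.71 and 11.9 (-2.99 ± 0.74, -1.75 with an offset of 16), a call lost without CMP 24 h replicate 1 or 2 or CMP 4 h replicate 1. AT2G30540 (-1.22) lost its call without any single CMP array. The lactate dehydrogenase gene AT4G17260, of fermentation, had 516, 519 and 311 at 4 h and 72.3, 69.1 and 77.4 at 24 h (-2.58 ± 0.20, adjusted p = 1.48e-06). Its acetone arrays lay at 122 to 145, so CMP was above them at 4 h and below at 24 h. The defensin-like gene AT3G05730 went from 958, 1025 and 760.0 to 106, 104 and 193 (-2.82 ± 0.30) and the lipid transfer-like gene AT2G10940 from 1013, 1055 and 747 to 114, 153 and 178 (-2.67 ± 0.43), the latter with 1905 to 3056 in acetone. The defensins LCR68 (-1.45) and LCR69 (-1.05) fell as well. The remaining large falls were AT1G12080 (-2.60), AT5G57760 (-2.59), AT5G62280 (-2.59) and AT1G74870 (-3.08). With an offset of 16 the last 3 were -1.15, -0.97 and -1.30. AT5G62280 kept its call only without CMP 24 h replicate 1, AT1G74870 only without CMP 24 h replicate 2, and AT5G57760 lost it without CMP 4 h replicate 1.

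**Figure D3:**
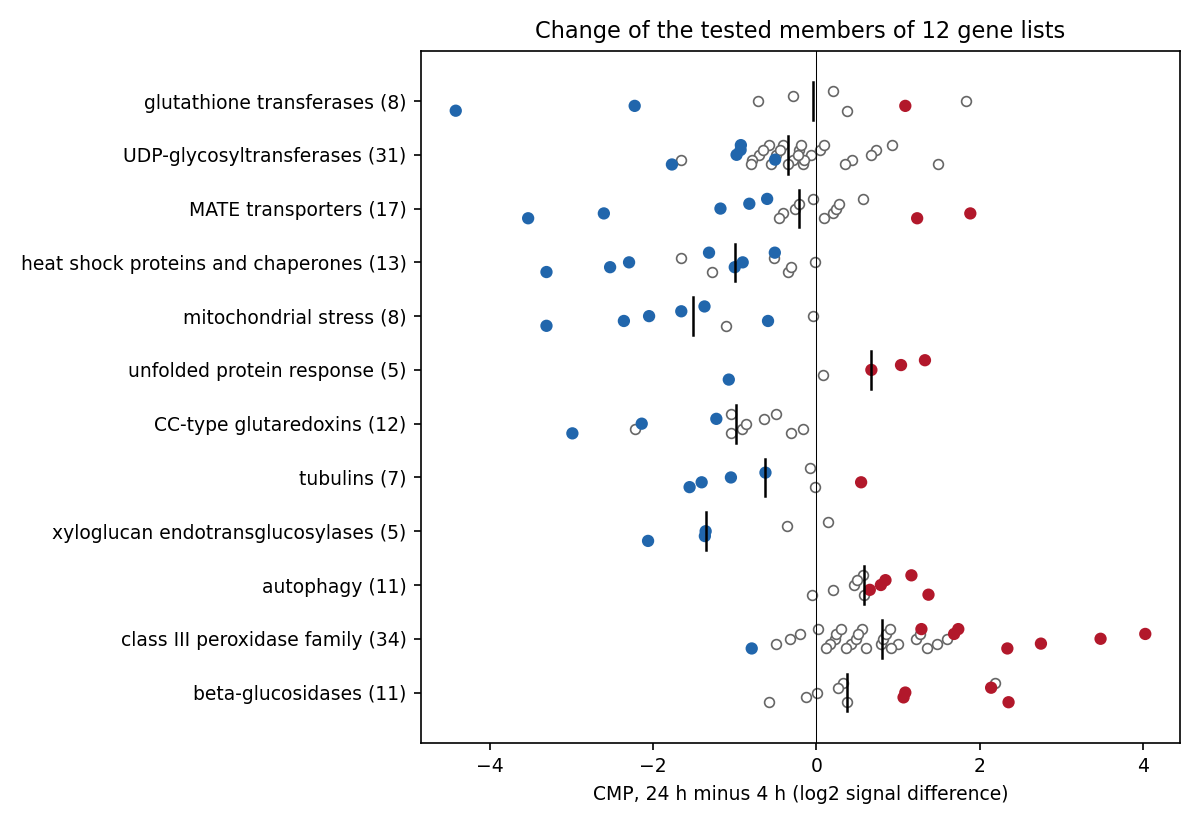
Difference in mean log2 signal, 24 h minus 4 h of CMP, for each tested member of 12 gene lists (numbers tested in brackets), with the median as a black bar. Filled points passed an adjusted p under 0.05 (red higher, blue lower) and open points did not. The 8 mitochondrial stress genes (median -1.51) and the 13 heat shock genes of the list by locus (-1.0) lie below 0, and class III peroxidases (0.80) mostly above.

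Among the rises, AT5G39520, of unstated function here, rose from signals above the lowest of the arrays. Its signal was 17.8, 31.4 and 20.7 at 4 h and 569, 742 and 519 at 24 h (4.73 ± 0.61, adjusted p = 0.000184, 26.6-fold), while acetone gave 35.7, 29.5 and 49.1 at 4 h and 10.9, 17.9 and 8.40 at 24 h. The peroxidase gene PRX52 (AT5G05340), known for a part in lignin formation, went from 28.4, 37.2 and 41.8 to 345, 422 and 422 (3.48 ± 0.37, adjusted p = 3.64e-05), with 13.7 to 35.0 in acetone. AT1G78780, a pathogenesis-related family gene, went from 37.0, 37.0 and 46.4 to 281, 369 and 242 (2.88 ± 0.24, adjusted p = 3.74e-06). AT2G38240, a jasmonate oxidase that inactivates the hormone, went from 46.2, 51.7 and 31.8 to 241, 413 and 339.9 (2.93 ± 0.69, adjusted p = 0.00974), with 1.97 to 10.3 in acetone. The U-box gene AT3G61390, of a class of ubiquitin ligases, went from 152, 59.2 and 190.2 to 627, 762 and 559 (2.43 ± 0.51, adjusted p = 0.00469), with 5.02 to 12.6 in acetone. AT4G05030 rose from 26.0, 16.7 and 19.9 to 151, 268 and 178 (3.24 ± 0.52) and the linker histone gene HIS1-3, known from drought, from 21.6, 12.4 and 26.2 to 215, 77.9 and 134 (2.77 ± 0.63). In these 7 genes no array of one time reached the range of the other. For genes picked by size or from the lists this was a condition of being named. It held for 39.4% of all tested probe sets.

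Of all tested probe sets the largest rise was that of a probe set with no gene name (5.47, adjusted p = 2.05e-06). Among probe sets with 1 gene name, several of the largest rises started near the lowest signals of the arrays, and their size is uncertain. AT3G28510, an AAA-type ATPase, had 2.69, 0.281 and 10.1 at 4 h and 101, 94.8 and 64.7 at 24 h (5.44 ± 1.06, adjusted p = 0.00293), or 2.35 with an offset of 16. AT3G57950 went from 3.79, 0.396 and 2.28 to 26.9, 39.9 and 30.1 (4.40, or 1.41 with the offset) and the peroxidase AT1G14550 from 1.40, 4.85 and 1.31 to 25.0, 31.3 and 49.3 (4.03, or 1.44). The heavy-metal-associated proteins AT5G52770 and AT5G52720 had 2.04 to 3.62 and 1.13 to 4.09 at 4 h and 31.0 to 49.5 and 24.1 to 30.0 at 24 h. Their differences were 3.97 and 3.88, or 1.59 and 1.22 with the offset. AT5G52770 lost its call without any single CMP array, AT5G52720 and the carboxypeptidase-like scpl16 (3.70, or 1.18) without CMP 4 h replicate 1. The nucleoporin gene AT1G59660 rose by 2.96 (1.46 with the offset), the lectin gene AT5G03350 by 2.97 (1.91) and the flavonol rhamnosyltransferase AT1G06000 by 2.61 (0.93). All of these kept an adjusted p under 0.05 with the offset.

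Several class III peroxidases rose, by a family list put together after the values were seen. Of 34 tested, 7 rose and 1 fell, and 30 had a difference above 0, with a median of 0.80 against 0.20 in acetone and 0.11 over all probe sets. The share of calls, 7 higher of 34, compares with 5.94% of all probe sets. The peroxidase AT4G08780 went from 24.4, 22.1 and 32.1 to 143, 170.5 and 218 (2.75 ± 0.41, adjusted p = 0.000516). Prx37 and AT2G35380 were named here after their values were seen. Prx37 rose by 1.74, and AT2G35380 by 1.69. AT5G19890 rose by 2.34 ± 0.60 but lost its call without CMP 24 h replicate 1 or 3 or CMP 4 h replicate 1, and AT5G06730 (1.29) without CMP 4 h replicate 1. AT1G71695 was the one that fell (-0.79). The shorter list by symbol had 4 tested genes, of which only PRX52 rose (median 0.24). In the family list between 5 and 8 rose when single CMP arrays were left out. Only PRX52 rose by more than the acetone change by test (2.63 ± 0.53 more, adjusted p = 0.0132). The other glycoside and peptidase families were less stable: of 11 beta-glucosidases 4 rose (BGLU27, BGLU45, BGLU25 and BGLU40), but 1 without CMP 24 h replicate 1 and 0 without CMP 24 h replicate 2 or 3 or CMP 4 h replicate 1 or 2. Of 14 serine carboxypeptidase-like genes 4 rose and 2 fell, against 5.94% and 7.04% of all tested probe sets. The rises numbered 0 without CMP 4 h replicate 1, 1 without CMP 24 h replicate 1 or 3, and 2 without CMP 24 h replicate 2. The lists of beta-glucosidases and carboxypeptidase-like genes were also put together after the values were seen.

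Among the autophagy genes 5 of 11 rose, by 0.65 to 1.37 on the log2 scale. AT5G66930 (ATG101, of the kinase complex that starts autophagy) went from 96.8, 78.3 and 112 at 4 h to 219.9, 284 and 236 at 24 h (1.37 ± 0.21, adjusted p = 0.000595), while acetone arrays lay at 65.7 to 91.2. Of the ATG8 genes, APG8A went from 449, 631 and 537 to 912, 1113 and 871 (0.85 ± 0.18) and ATG8D from 204, 224 and 177 to 318, 369 and 356 (0.79 ± 0.17). APG8H (AT3G15580) rose by 0.65, and ATG8H by 1.16, the latter a call kept only without CMP 4 h replicate 1. None of the 11 fell, 10 had a difference above 0, and the median was 0.58 against 0.14 in acetone. By test, only 1 of the 11 rose by more than in acetone. The share of rises over all tested probe sets was 5.94%. After median centring 4 rose, and 4 or 5 did when single CMP arrays were left out.

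Signalling and defence genes did not share a direction. The chitinase gene CHI (AT2G43570) rose from 168, 426 and 409 to 892, 908 and 932 (1.56 ± 0.35, adjusted p = 0.00723) while the defensins named above fell, and of 8 tested genes of pathogenesis and immune priming 2 rose and 2 fell. The second rise, of the defensin PDF1.4 (0.74), lost its call without any single CMP array. For the lists of this paragraph, the shares over all tested probe sets were 5.94% higher and 7.04% lower. The auxin-conjugating enzymes went opposite ways. GH3.3 fell from 273, 264 and 302 to 69.5, 129 and 76.5 (-1.66 ± 0.33, adjusted p = 0.003) and GH3.17 rose from 46.6, 42.6 and 42.9 to 253, 124 and 183 (2.03 ± 0.46, adjusted p = 0.00802). Of 8 calmodulin-like genes 3 fell (CML23, -1.48 ± 0.26, CML30, -0.66, and CML42, -0.63) and CML41 rose (1.44 ± 0.34). CML30 kept its call only without CMP 4 h replicate 2 and CML42 only without CMP 4 h replicate 3, and CML41 lost it without CMP 24 h replicate 2 or CMP 4 h replicate 2. The stress zinc finger gene STZ fell by 0.81 ± 0.18 (adjusted p = 0.00632), from 521, 661 and 507 to 289.7, 362 and 312. Of 6 nitrate and phosphate transporter genes GTR1, which carries glucosinolates, rose (0.75 ± 0.17). Of 6 WRKY transcription factors 0 were called (1 fell after median centring). WRKY6 had 439, 411 and 381 at 4 h and 220.3, 272 and 242 at 24 h without passing (-0.75 ± 0.25, adjusted p = 0.0608).

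Some genes far above acetone kept high signals at both times, and their change missed the threshold. The spread behind that threshold was estimated over all groups together, so a missed call does not show that a gene was unchanged in CMP. With only the 6 CMP arrays fitted, 2 of 6 tested subtilases fell and 0 rose, against 0 and 0 in the main fit. How far the low acetone signals widened the spread was not tested. The uncharacterised AT4G01870 had 2673, 1986 and 1660.2 at 4 h and 1369.8, 1939 and 1699 at 24 h (-0.32 ± 0.29, adjusted p = 0.498), with 37.8 to 135 in acetone. SBT3.3, a subtilase of immune priming, had 1407, 1221 and 1254 and 629.6, 1012 and 865 (-0.66 ± 0.51, adjusted p = 0.422), with 0.689 to 19.4 in acetone. CML37 and CML38 had CMP signals of 157 to 254 and 138 to 362 at 4 h and of 238 to 309 and 239 to 386 at 24 h, with no call for either. The aldo-keto reductase AT1G60750 had 191, 102 and 201 and 142, 121 and 115, with 0.430 to 6.09 in acetone. Of the genes that CMP cultures held below acetone, the lipase AT1G29660 had 26.5 to 50.2 at 4 h, 28.1 to 34.1 at 24 h and 375 to 775 in acetone, with a difference of -0.32 ± 0.45 between the times.

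Transcripts encoded in the plastid were lower at 24 h as a group. Roots in the dark hold plastids without chlorophyll, whose small genome encodes parts of the photosystems, of the ribosome and of a polymerase. Of 62 tested genes 22 fell and 0 rose, and 58 had a difference below 0. The 22 are 35.5%, against 7.04% of all tested probe sets. This list was added after the values of this comparison were seen, so the share is no independent support. The median was -0.64, against -0.28 in acetone and 0.11 over all probe sets in CMP. The mean log2 signal over the 62 was 8.91, 8.95 and 8.56 at 4 h and 8.23, 8.29 and 7.90 at 24 h, without overlap. In acetone it was 8.90, 8.93 and 8.83 at 4 h and 8.75, 8.39 and 8.75 at 24 h. The photosystem gene psbH went from 501, 544 and 429 to 174, 187 and 169 (-1.47 ± 0.22, adjusted p = 0.000496), psaJ from 967, 975 and 718 to 396, 294 and 279.6 (-1.46 ± 0.23, adjusted p = 0.000705), and psbB from 88.3, 92.8 and 63.3 to 32.4, 47.9 and 19.2 (-1.37 ± 0.33), the last call lost without CMP 24 h replicate 3. The large subunit of Rubisco, rbcL, fell by 1.16. By role, 9 of 20 photosystem genes fell (median -0.74), 1 of 8 of the NDH complex (-0.77), 3 of 14 ribosomal protein genes (-0.49), 1 of 3 of the RNA polymerase (-0.48), 1 of 5 of the ATP synthase (-0.44) 2 of 4 of the cytochrome b6f complex (-0.65), and 5 of 8 of the remaining genes, rbcL among them (-0.94). Leaving out 1 CMP array gave from 7 falls (without CMP 24 h replicate 3) to 25 (without CMP 4 h replicate 3), with 9 without CMP 4 h replicate 1, 11 without CMP 4 h replicate 2, 13 without CMP 24 h replicate 1 and 18 without CMP 24 h replicate 2. The change was lower than that of acetone by test in 3 of the 62, psbH, psaJ and petB. Plastid genes are transcribed in shared units and are not independent of each other. The spiked poly-A and GAPDH values also differed between the times, and their part in this shift was not tested.

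**Figure D4:**
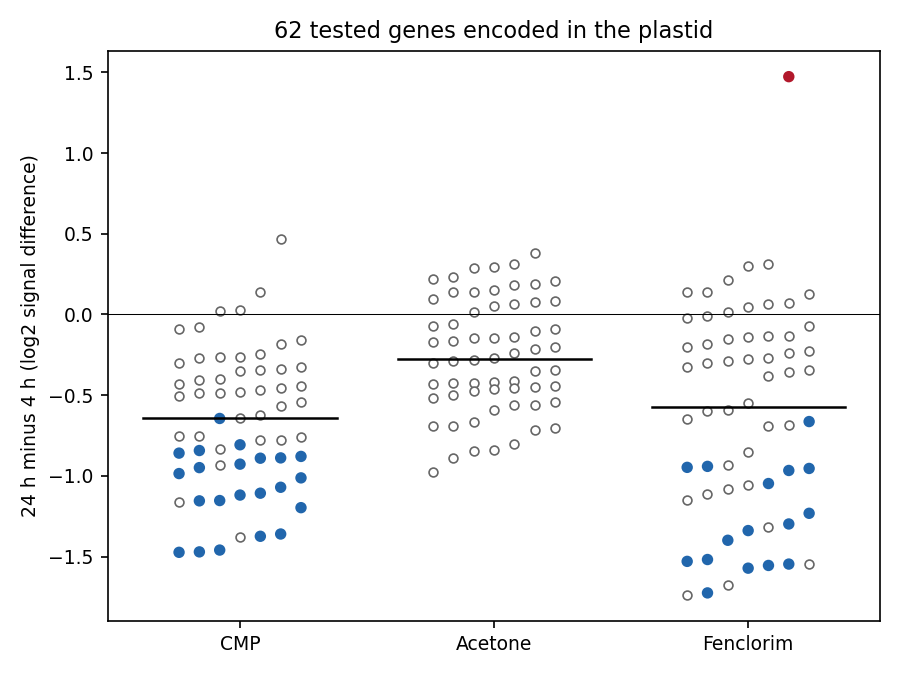
Difference in mean log2 signal, 24 h minus 4 h, of 62 genes encoded in the plastid in CMP, acetone and fenclorim cultures, with medians as black bars; points are spread sideways for visibility only. Blue points fell and red points rose (adjusted p under 0.05): 22 and 0 in CMP, 0 and 0 in acetone, 16 and 1 in fenclorim with all its arrays (24 and 2 without the 2 described below as apart).

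Whether the CMP change differed from the change of the solvent cultures was tested directly. It did so for 474 probe sets (3.4%), 132 with a higher (0.948%) and 342 with a lower (2.46%) change in CMP. Of the 827 probe sets that rose in CMP 122 rose by more than in acetone, and of the 980 that fell 315 fell by more. GSTU25 differed by -5.07 ± 0.80 (adjusted p = 0.00359), AT5G51440 by -3.79 ± 0.58 (adjusted p = 0.00302) and AT5G39520 by 6.40 ± 0.86 (adjusted p = 0.0012). AT5G39520 had a difference of -1.66 ± 0.61 in acetone that was not called. For AT3G28510 and AT4G08780 the difference from acetone was 3.99 and 1.71 and did not pass (adjusted p = 0.17 and 0.122). The mitochondrial stress list had 4 of 8 members with a lower change than acetone and the heat shock list 4 of 13. Leaving out single arrays of the 4 groups gave 182 (without CMP 24 h replicate 1) to 422 probe sets (without CMP 4 h replicate 3). The count was 276 and 260 without CMP 24 h replicates 2 and 3, 195 without CMP 4 h replicate 1, 257 and 214 without acetone 24 h replicates 2 and 3, and 202 without acetone 4 h replicate 3. It was 967 when only the CMP and acetone arrays were fitted.

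The change between the times was also set against that of fenclorim cultures, where 2 arrays did not sit with their groups. On the second principal component fenclorim 24 h replicate 2 lay at -4.17 and the other 24 h arrays at -72.8 and -75.7. Fenclorim 4 h replicate 3 lay at -52.4 and the other 4 h arrays at -1.57 and -10.9, so each lay toward the arrays of the other time. With all arrays 675 probe sets rose in fenclorim (4.85%) and 732 fell (5.26%). Of these, 148 rose in both compounds (17.9% of the CMP rises, 21.9% of the fenclorim rises) and 199 fell in both (20.3% and 27.2%), while 12 rose in CMP and fell in fenclorim and 26 the reverse. Without both arrays 2012 rose and 2754 fell in fenclorim, and of the CMP calls 184 rose and 214 fell in both, 70 rose in CMP and fell in fenclorim, and 172 did the reverse. The CMP calls in these counts are those of the fit with all arrays. The change differed between the compounds by test for 740 probe sets (5.31%), 284 higher (2.04%) and 456 lower (3.27%) in CMP, or for 4606 (2824 and 1782) without both arrays. The count was 3020 without fenclorim 24 h replicate 2 alone and 1555 without fenclorim 4 h replicate 3 alone. Leaving out one of the others gave 313 (fenclorim 24 h replicate 1), 201 and 247 (fenclorim 4 h replicates 1 and 2), 274, 390 and 349 (CMP 24 h replicates 1, 2 and 3) and 359 and 339 (CMP 4 h replicates 1 and 2). It gave 610 for fenclorim 24 h replicate 3 and 709 for CMP 4 h replicate 3.

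**Figure D5:**
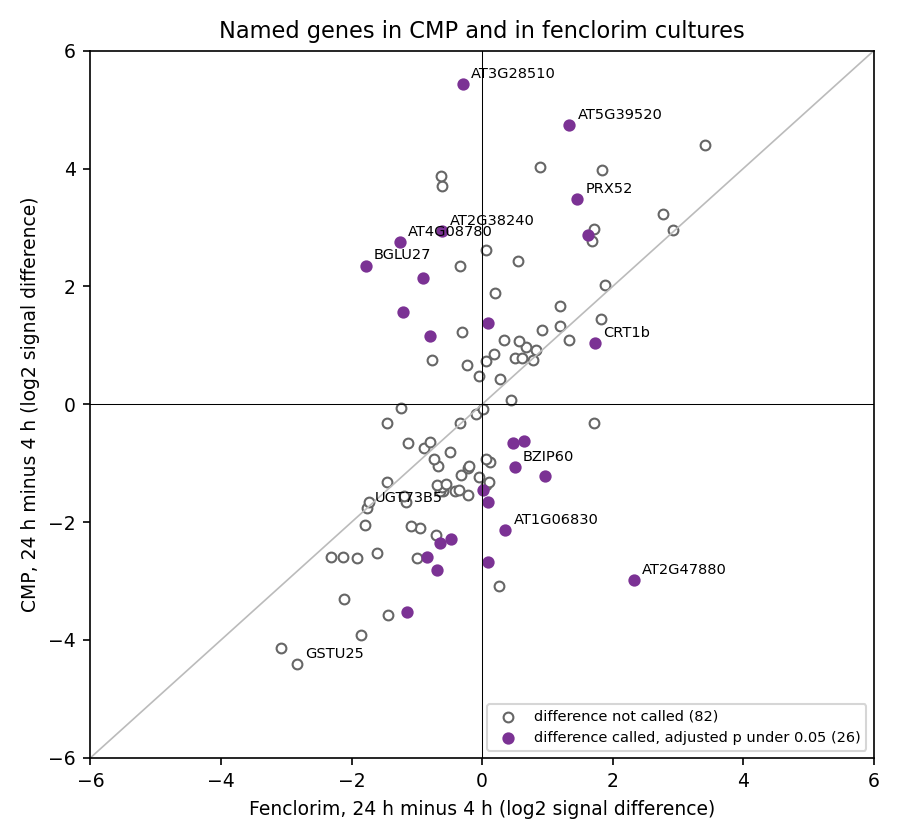
Difference in mean log2 signal, 24 h minus 4 h, of the 108 named genes in fenclorim (horizontal) and CMP (vertical), with all arrays; the grey line marks equal change. Filled points are the 26 genes whose changes differed between the compounds (adjusted p under 0.05), such as BZIP60, which fell in CMP (-1.07) with a difference of 0.50 in fenclorim.

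Of the 108 named genes, most of them chosen by their change in CMP, 26 changed differently in CMP and fenclorim. The share was 5.31% over all probe sets, but the choice by CMP change favours such differences. Of the 26, 16 had differences of opposite sign. All 26 kept an adjusted p under 0.05 without both fenclorim arrays, where 4606 probe sets were called against 740 with all arrays. Keeping a call there is thus weak support, and the fits with fewer calls are not given for these 26. BZIP60 differed by -1.57 ± 0.24 (adjusted p = 0.00374), and by -1.75 without both fenclorim arrays. The glutaredoxins AT2G47880 (-5.31) and AT1G06830 (-2.50) were lower in their change in CMP, the peroxidase AT4G08780 (4.01, adjusted p = 0.00344) and the chitinase CHI (2.77, adjusted p = 0.00661) higher. Without both arrays these 4 values were -6.58, -3.38, 4.66 and 2.92. Lactate dehydrogenase AT4G17260 fell in both, by more in CMP (-1.75 ± 0.28, adjusted p = 0.00448), and so did AT2G04050 (-2.38 ± 0.47, adjusted p = 0.0108). PRX52 rose in both, by more in CMP (2.02 ± 0.53, adjusted p = 0.0361), and CRT1b by less (-0.69 ± 0.18, adjusted p = 0.0404). For the other 82 named genes no difference was called. UGT73B5 changed by -1.77 in CMP and -1.77 in fenclorim, with a 95% interval of the difference from -0.89 to 0.89. NDB2 changed by -1.65 and -1.73 (interval -0.70 to 0.85). For GSTU25 the changes were -4.42 and -2.84, with an interval from -3.27 to 0.12. Without both fenclorim arrays the 3 differences were 0.49, 0.01 and -1.36, again with no call. The labels give no dose for either compound, so whether the doses matched is not known.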

How the data were processed

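RNA of 18 root culture samples was hybridised to Affymetrix ATH1 arrays, which measure a transcript with a probe set of short oligonucleotides. The intensity values are MAS5 signals as deposited by the authors in one table, on a linear scale; MAS5 and GCOS are named in the submitters' processing notes. The trimmed mean of the non-control signals was 98.4 to 99.1 on every array, and the scaling target is not given in the sources used here. Signals lay between 0.0102 and 8886. The number of arrays limits the precision, and an array gives no read depth.

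The signals were turned to log2 with no offset. Of 22810 probe sets, 64 controls were left out, and 13929 that lay above the 40th percentile of their array on at least 3 of the 6 CMP arrays were kept. All 18 arrays were fitted together with 1 mean per group in limma 3.58.1 (R 4.3.3; lmFit, contrasts.fit and eBayes with an intensity trend), so that all groups share an estimate of the spread. P-values were adjusted by Benjamini-Hochberg over the 13929, and the threshold was 0.05. The contrasts were 24 h against 4 h in CMP, acetone and fenclorim, and the CMP change minus the acetone or fenclorim change. The fit was also run on simulated data with known changes and independent normal noise. No array stood apart in that simulation, so it does not test the fit for such arrays.

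Genes come from the platform annotation, where 13513 probe sets have 1 gene, 503 have several and 8730 are not listed; 13436 of the 13513 matched a RefSeq gene by locus. No genome build is named in the files, so no coordinates are given, and no sequences are printed. The 108 named genes are the 15 largest changes in each direction among called probe sets with 1 gene, no overlap between the groups and a mean log2 signal of the higher group above 4.13 (the median 40th percentile of the arrays), up to 4 called genes of each list by the same criteria, and a fixed set of genes known from the study's other comparisons; a few list members named beyond these were chosen after their values were seen. The comparison, its gene lists and the rule were chosen with earlier results of these data known, and 13 of the lists (among them those of plastid genes, peroxidases, heat shock genes, MATE carriers and glutaredoxins) were added after the values of this comparison were seen. The alternatives were other filters, offsets, normalizations, sets of arrays and a block for the replicate number. Replicate numbers were the same in each group, but same-numbered CMP arrays deviated from their group means with correlations of -0.15, -0.17 and -0.086 between 4 h and 24 h, so the numbers were not taken as pairs. In acetone these were -0.40, -0.062 and -0.47. Acetone 4 h replicate 3 with 24 h replicate 1 gave 0.47, and 4 h replicate 1 with 24 h replicate 3 gave 0.36. The other acetone pairs of unlike number lay between -0.080 and 0.13. The part of such shared deviations in the results was not tested. No 2 arrays held identical values.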

Additional observations from a re-analysis of the deposited data

Results flagged for a closer look

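The change between 4 h and 24 h differed between CMP and acetone for 474 probe sets and between CMP and fenclorim for 740, each by a test of the difference itself. The second count rests on fenclorim groups with an array apart in each, and was 4606 without these arrays.

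Among the named genes, most of them chosen by their CMP change, 16 had differences of opposite sign in CMP and fenclorim together with a called difference. The values here are the CMP change minus the fenclorim change in log2 signal. The difference was higher in CMP for the ATPase AT3G28510 (5.73), BGLU27 (4.14), the peroxidase AT4G08780 (4.01), the jasmonate oxidase AT2G38240 (3.55), BGLU45 (3.05), which acts on lignin precursors, the chitinase CHI (2.77) and ATG8H (1.96). It was lower in CMP for AT2G47880 (-5.31), AT2G30540 (-2.18) and AT1G06830 (-2.50), all CC-type glutaredoxins, and for the lipid transfer-like AT2G10940 (-2.77). It was also lower for GH3.3 (-1.76), BZIP60 (-1.57), the defensin LCR68 (-1.47), TUA6 (-1.27) and CML30 (-1.12). Without both fenclorim arrays the GH3.3 value was -1.04, while the fenclorim change itself was then -0.62.

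The spiked poly-A controls, which belong to no comparison, had a mean log2 signal of 7.67 on CMP 4 h replicate 2, above each acetone array (6.05 to 7.11). It was not the highest of the study: fenclorim 24 h replicates 1 and 3 had 7.83 and 8.04.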

How the results depend on the processing

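Of the 94 named genes called between 24 h and 4 h of CMP, 58 were called under every alternative; over 2027 pairs of a named gene and an alternative, 1825 kept direction and side of the threshold, 186 lost a call, 10 gained one and 6 turned sign. The 6 belong to genes with no call: WRKY53 (-0.070) was 0.12 without CMP 24 h replicate 1 and ranged from -0.29 to 0.16 when single arrays were left out, AUR1 (-0.084) ranged from -0.27 to 0.040, and PRL (0.065) was -0.070 after median centring, -0.067 after quantile normalization and -0.088 to 0.16 without single arrays. The cause was not tested.

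The 1807 CMP calls became 1546 with the replicate block, 1583 with no filter, 1554 with a 60th percentile filter and 2621 with only the 6 CMP arrays fitted. They became 2788 without the fenclorim arrays and 2859 without the 2 that stood apart, both chosen after seeing the data, and 1024 to 1798 without single CMP arrays. The acetone count of 0 became 2 with the 60th percentile filter, 3 with the replicate block, 1 without the fenclorim arrays, 5 without the 2 apart and 0 to 10 without single arrays. The 474 of CMP against acetone became 967 with only the compared groups, 967 without fenclorim, 1095 without fenclorim and CMP 4 h replicate 2, 960 without the 2 apart, and 182 to 422 without single arrays. The 740 of CMP against fenclorim became 385 with only the compared groups, 450 with the replicate block, 4606 without the 2 apart, and 201 to 3020 without single arrays. Fewer arrays were fitted where single arrays were left out. Genes near the lowest signals have folds that depend on the offset, and probe sets under the 40th percentile were not tested.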
